A study of Mus musculus with 2 samples.

Results

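The transcriptional response of alveolar epithelial type II (AE2) cells of young mice to lipopolysaccharide (LPS) was measured in 3589 cells, 1878 from control lungs and 1711 from LPS-treated lungs. They are part of the 8181 AE2 cells in the series and of 4845 young cells that passed the cell filter. Cells were chosen by their own transcripts: at least 500 detected genes, at most 20% mitochondrial unique molecular identifiers (UMIs), at least 1% of UMIs from the surfactant gene Sftpc, and a UMI in at least 3 of Lamp3, Abca3, Slc34a2, Napsa, Lpcat1 and Etv5. Cells with any UMI of the leukocyte gene Ptprc, with 3 or more UMIs of the cilium genes Ccdc153 and Tmem212, or with 10% or more of their UMIs from the club cell gene Scgb1a1 were left out. The 11 genes named in these criteria are therefore described without a test.

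All mice were C57BL/6JRj. Young mice were 3 months old, and received saline (young control) or LPS at 2.5 mg per kg body weight (young LPS), with lungs taken at 24 h in each case. Old mice of 18 months with the same treatments serve here for the comparison with age at the end. They also enter the shared fit, through its filter on low counts, its scaling and its estimate of spread. Lung cells freed with dispase were sorted for the epithelial surface protein EpCAM, dead cells were removed by DAPI, and the 4 groups were told apart by hashtag antibodies and pooled for 1 droplet lane. The whole experiment was repeated once as an independent biological replicate, per the labels, so each group has 2 libraries, numbered here by lane. The labels give neither the route of LPS nor the number of mice behind a library.

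AE2 cells line the alveolus, make and recycle surfactant, and serve as progenitors of the flat type I cells. LPS, a cell wall component of Gram-negative bacteria, is recognised by Toll-like receptor 4 with its partners CD14 and MD-2, which leads to NF-kappaB activity and to production of interferon by some cell types. Interferons act through their receptors on interferon-stimulated genes, and interleukin-6-type cytokines signal to acute phase genes. In lung tissue all of these signals also pass between leukocytes and epithelium, and total RNA of a cell mixes direct and indirect responses.

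The AE2 cells gave 4197306 and 7465529 UMIs in controls 1 and 2, and 5963032 and 7732524 UMIs in LPS 1 and 2. Median UMIs per cell were 5742 and 6534 in the controls and 7577 and 8314 after LPS, so depth per cell rose with the treatment. AE2 cells made up 72.6% and 82.6% of the filtered cells in the controls and 65.1% and 74.5% after LPS. These shares depend on the Sftpc minimum, which alone left out 2 and 5 control cells and 226 and 177 LPS cells. With those cells counted, the share after LPS was the higher one in both lanes. Other AE2 genes that took no part in the selection were abundant in each library: Sftpa1 held 29920 and 32430 CPM (counts of UMIs scaled to equal library size) in the controls and 42060 and 38140 CPM after LPS. Markers of T and NK cells, dendritic cells, fibroblasts and red cells summed to at most 1.21 CPM in each library. Among the 4 young libraries, 1 cell barcode occurred in more than 1 library.

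Sftpc itself, the gene of surfactant protein C and part of the selection, held a median of 25.6% and 23.7% of a cell's UMIs in controls 1 and 2. After LPS the median was 3.31% and 4.62%, and no selected control cell lay near the minimum of 1%. Between 1% and 1.2% there were 0 and 0 control cells and 38 and 40 LPS cells, and between 0.8% and 1% there were 0 and 0 control cells and 49 and 57 LPS cells. The minimum alone left out 2 and 5 control cells and 226 and 177 LPS cells that met each other criterion. These left-out LPS cells held 1668 and 1833 CPM of the interferon-induced GTPase Gbp2 before scaling, against 788 and 533 CPM in the selected LPS cells of the same libraries. Cxcl1, a neutrophil chemokine, stood at 729 and 467 CPM in them against 302 and 209.9 CPM. The selection therefore trims the LPS groups at the end where Sftpc was lowest and these genes were higher. The counts of called genes without the minimum are given below.

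**Figure D1:**
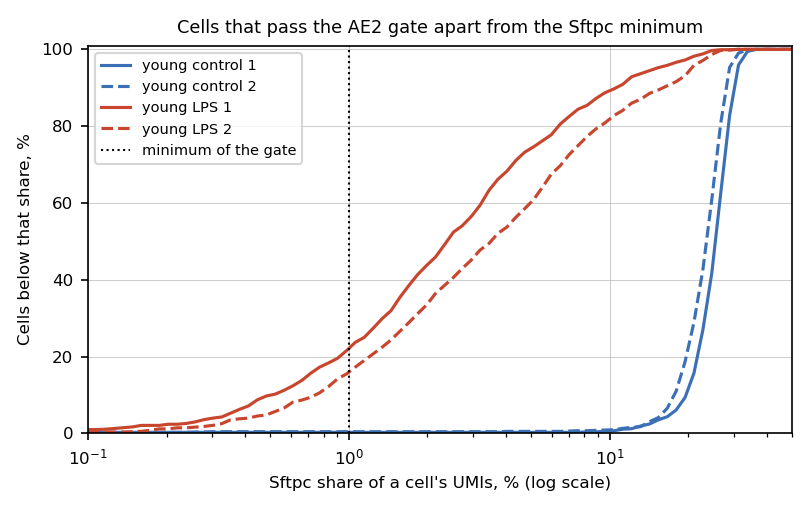
Cumulative share of cells (%) below a given Sftpc share of UMIs (%, log axis) among cells that met every AE2 criterion other than the Sftpc minimum, 1 line per young library; the dotted line is the minimum of 1%. The control lines rise far to the right of the minimum, while both LPS lines are spread out and cross it.

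After LPS, every tested gene of the antiviral, MHC class I and acute phase lists was called higher in AE2 cells, while 10 of 20 tested genes of developmental signalling and 8 of 14 of the cell cycle were called lower and none higher. In a fit over all 8 libraries (edgeR quasi-likelihood test, Benjamini-Hochberg adjusted p under 0.05), 2216 of 11347 tested genes were higher after LPS (19.5%) and 1742 were lower (15.4%). By over 2-fold, 730 genes were higher (6.43%) and 653 were lower (5.75%). In each of the 3958 called genes, both LPS libraries lay on the same side of both controls, and the sign was the same within both lanes. With 2 libraries against 2 such separation was common: 3977 of all tested genes were higher and 4012 lower without overlap. The median log2 change over all genes was -0.01. Scaled per cell in place of per UMI, that median was 0.35, and 3784 genes were called higher and 654 lower, since an AE2 cell after LPS yielded more UMIs. Directions below are relative to all genes, as scaled per UMI, and fewer cells of a kind cannot be told apart from less RNA per cell in these sums.

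These counts of calls moved with the libraries and settings used. Without control 1, control 2, LPS 1 and LPS 2 in turn, 1548, 1388, 1516 and 1612 genes were higher and 1086, 922, 920 and 1002 were lower. DESeq2 called 1517 higher and 1008 lower. Without the Sftpc minimum 2477 genes were higher and 2085 lower, and the changes over 2-fold numbered 796 and 786.

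**Figure D2:**
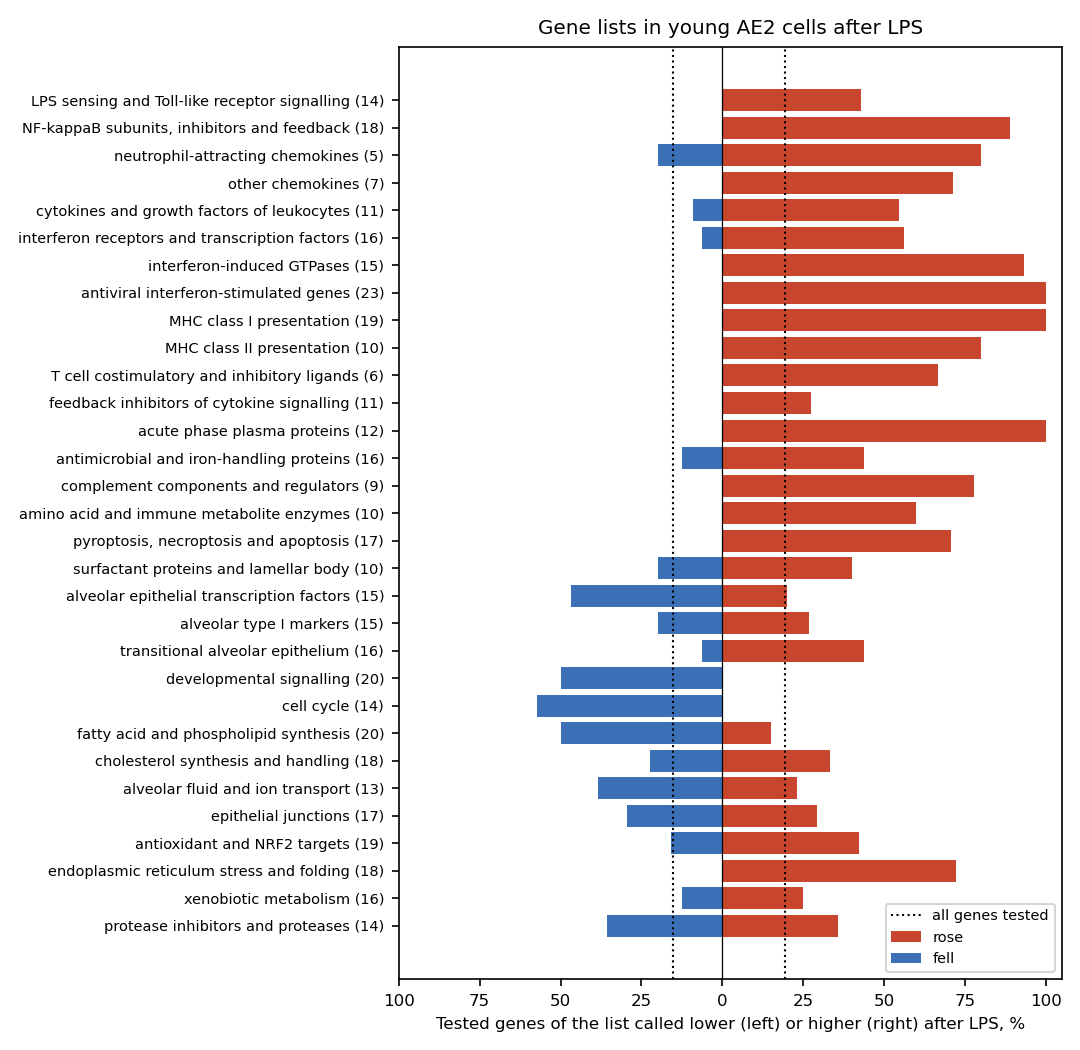
Share of the tested genes of 31 lists (number tested in parentheses) that were called higher (red, right) or lower (blue, left) after LPS in young AE2 cells, in %; dotted lines give the shares over all genes tested. The genes used to select cells are left out of the bars. The GTPase, antiviral, MHC class I and acute phase lists are nearly all red, and the developmental and cell cycle lists are blue only.

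Genes of LPS recognition changed unevenly. Cd14, the co-receptor that hands LPS to the receptor complex, stood at 151 and 128 CPM in the controls and at 1077 and 941 CPM after LPS, a log2 change of 2.85 ± 0.17 (SE, adjusted p = 9.1e-07). The receptor Tlr4 was at 12.8 and 10.6 CPM in the controls and 9.16 and 7.84 CPM after LPS; these levels do not overlap, but the difference did not pass the test (log2 -0.44 ± 0.19, adjusted p = 0.084). Its partner Ly96, the MD-2 protein, rose by 0.98 ± 0.19 (log2), and Lbp, which carries LPS to CD14, by 0.49 ± 0.10. Tlr2, the receptor of bacterial lipopeptides, was near the detection floor in the controls, with 2 and 3 UMIs, and reached 5.43 and 6.93 CPM after LPS. Of 15 genes in the list of LPS sensing and Toll-like receptor signalling, 14 were tested, 6 rose and none fell. Over all tested genes, 19.5% rose and 15.4% fell. With DESeq2, 4 of the 14 were called higher. Irak3, among the 6, had 1 UMI in the controls together and 12 after LPS, and lost its call with DESeq2. Its log2 change was 2.61 to 5.79 without any 1 of the young libraries. The adaptors Myd88, Tirap and Ticam1 were not called, with log2 changes of 0.20, 0.12 and 0.37.

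NF-kappaB inhibitors and feedback genes rose in nearly the whole list: 16 of 18 tested, with a median log2 change of 1.16. Nfkbia encodes IkappaB-alpha, which holds NF-kappaB in the cytoplasm and is itself a target. It stood at 89.2 and 81.6 CPM in the controls and 474 and 409 CPM after LPS (log2 2.37 ± 0.20, adjusted p = 4.03e-05). Zc3h12a, an RNase that degrades inflammatory mRNAs, was at 6.51 and 5.04 CPM and then at 55 and 52.3 CPM (log2 3.25 ± 0.18). The ubiquitin editor Tnfaip3 (A20) rose by 2.53 ± 0.19, and Nfkbiz by 1.34 ± 0.15. The LPS libraries lay above both controls for these genes, as they did for 3977 of 11347 tested genes.

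Chemokines that attract neutrophils rose with 1 exception. Cxcl1 was at 17.1 and 15.9 CPM in the controls and at 306 and 212 CPM after LPS (log2 3.97 ± 0.20, adjusted p = 2.51e-07). Cxcl2 went from 34.5 and 16.6 CPM to 505 and 357 CPM (log2 4.14 ± 0.57), and Cxcl5 from 40 and 28.5 CPM to 355 and 305 CPM (log2 3.29 ± 0.16). LPS 1 was above LPS 2 in all 3 genes. Cxcl15, the lung-specific chemokine lungkine, was the exception: 10580 and 10060 CPM in the controls and 5071 and 5191 CPM after LPS, so it fell by 1.01 on the log2 scale (SE 0.26, adjusted p = 0.0287). That call was lost, at log2 -1.04 to -0.97 and adjusted p of 0.0743 to 0.108, when any 1 of the 4 young libraries was left out, and with no filter on low counts (log2 -0.99). Ppbp, the remaining gene of this list, was not tested because its counts were too low.

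Among chemokines of other leukocytes, 7 of 15 genes were tested, 5 rose and none fell. Cxcl16, which draws activated T cells, stood at 42.9 and 41.9 CPM in the controls and at 191 and 138 CPM after LPS (log2 1.95 ± 0.29). Cxcl17, a mucosal chemokine, went from 43.6 and 62.7 CPM to 215 and 196 CPM (log2 1.93 ± 0.14). The dendritic cell attractant Ccl20 varied more between libraries, with 28.9 and 8.63 CPM in the controls and 192 and 113 CPM after LPS. Its call (log2 3.14 ± 0.69, adjusted p = 0.0292) was lost without control 2 (log2 2.40), without LPS 1 (2.70) or without LPS 2 (3.46), and in a fit on the 4 young libraries only (3.17). Cxcl10, the interferon-induced attractant of T cells, was at 4.1 and 1.2 CPM and then at 121 and 43 CPM (log2 5.15 ± 0.89), a call that was lost without control 2 (log2 4.30) and in a fit on the 4 young libraries only (log2 5.13).

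Cytokine genes split. Csf2, which encodes the macrophage growth factor GM-CSF, was at 18.6 and 13.9 CPM in the controls and at 82.6 and 88.1 CPM after LPS (log2 2.43 ± 0.26, adjusted p = 2.96e-04). Csf1, the growth factor M-CSF, rose by 3.04 ± 0.30, and Il18bp, the decoy that binds interleukin-18, by 4.76 ± 0.22. Il33, an alarmin stored in the nucleus of AE2 cells, fell: 431 and 378 CPM in the controls and 158 and 205 CPM after LPS (log2 -1.15 ± 0.12, adjusted p = 4.45e-06). Tnf rose from 0.48 and 0.66 CPM to 5.09 and 2.35 CPM (log2 2.56 ± 0.54), a call lost when only cells with at least 2% Sftpc were kept (log2 1.84). Of 17 genes in this list 11 were tested, of which 6 rose and 1 fell.

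Irf7, which amplifies type I interferon production, went from 2.41 and 2.26 CPM in the controls to 85.3 and 67.2 CPM after LPS (log2 5.03 ± 0.22, adjusted p = 3.28e-10), and Irf1 from 26 and 24.7 CPM to 162 and 141 CPM (log2 2.58 ± 0.12). Among receptor chains, Ifngr2 rose by 1.86 ± 0.15 and Ifngr1 by 0.69 ± 0.20, the latter a call lost without control 1 (log2 0.54), LPS 1 (0.69) or LPS 2 (0.71), and with at least 2% Sftpc (0.56). No UMI of the interferon genes Ifnb1, Ifng, Ifnl2 or Ifnl3 was counted in the AE2 cells of any young library, where 3 counts would be 0.388 to 0.715 CPM. The list of interferon receptors and transcription factors had 9 genes higher and 1 lower of 16 tested; the gene that fell was Jak2 (log2 -0.89).

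Guanylate-binding proteins and immunity-related GTPases, which attack the vacuoles of intracellular microbes, rose in 14 of 15 tested genes of 17 in the list. Among the 14, Gbp6, Gbp9 and Tgtp2 had at most 3 UMIs in both controls together, passed the low-count filter only through LPS libraries and so had to differ. Gbp2 was at 7.71 and 4.78 CPM in the controls and at 797 and 539 CPM after LPS (log2 6.81 ± 0.30, adjusted p = 2.73e-06). Iigp1 went from 2.17 and 4.12 CPM to 1013 and 659 CPM (log2 7.94 ± 0.59), and Igtp from 7.23 and 5.71 CPM to 241 and 185 CPM (log2 5.07 ± 0.29). LPS 1 lay above LPS 2 in all 3 genes, by less than the distance from either to the controls. Gbp9, at 1 UMI in the controls together, is given as a ratio of 126 with a counting interval of 22.3 to 5011. Some members of this family are close copies, so reads may be split between them.

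Antiviral genes rose in all 23 genes tested of 26 in the list, each by over 2-fold, with a median log2 change of 4.81; Mx1, with no UMI in either control, counts there by its fitted value, and with its lower bound in place the median was 4.35. Isg15, a ubiquitin-like modifier, stood at 5.79 and 3.98 CPM in the controls and at 472 and 366 CPM after LPS (log2 6.48 ± 0.28, adjusted p = 9.26e-07). Zbp1, a sensor of Z-form nucleic acids, went from 2.89 and 2.66 CPM to 202 and 147 CPM (log2 5.98 ± 0.20). Usp18, which removes ISG15 and dampens interferon receptors, rose by 6.13 ± 0.22. Mx1, the dynamin-like GTPase against influenza, was at least 5.96-fold higher after LPS, set against 3 counts over both controls. Genes near 0 in the controls, such as Mx1, passed the filter on low counts only through the LPS libraries and so had to differ, and Oas1a and Oas2 did not pass it.

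The sequence before the start site is shown for 4 genes, chosen to show the motif of each pathway. The windows are the 240 bases before the RefSeq gene start in build GRCm38.p6, read 5′ to 3′ on the gene's strand: Isg15 (chr4:156200819-156201058, minus strand), Igtp (chr11:58199316-58199555, plus strand), Cxcl1 (chr5:90891005-90891244, plus strand) and Cxcl10 (chr5:92348890-92349129, minus strand). Capitals mark matches, on either strand, to the interferon-stimulated response element (ISRE, GAAANNGAAA), the gamma-activated site (GAS, TTCNNNGAA) or the NF-kappaB consensus.
Isg15: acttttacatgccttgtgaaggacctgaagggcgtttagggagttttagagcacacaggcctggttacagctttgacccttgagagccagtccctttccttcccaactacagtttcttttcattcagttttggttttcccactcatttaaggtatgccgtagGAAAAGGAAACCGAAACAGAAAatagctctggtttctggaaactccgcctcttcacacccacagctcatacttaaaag
Igtp: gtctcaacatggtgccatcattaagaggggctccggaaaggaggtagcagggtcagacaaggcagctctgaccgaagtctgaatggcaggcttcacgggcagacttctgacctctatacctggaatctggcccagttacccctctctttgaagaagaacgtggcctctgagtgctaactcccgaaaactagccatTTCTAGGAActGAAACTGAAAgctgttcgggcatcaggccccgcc
Cxcl1: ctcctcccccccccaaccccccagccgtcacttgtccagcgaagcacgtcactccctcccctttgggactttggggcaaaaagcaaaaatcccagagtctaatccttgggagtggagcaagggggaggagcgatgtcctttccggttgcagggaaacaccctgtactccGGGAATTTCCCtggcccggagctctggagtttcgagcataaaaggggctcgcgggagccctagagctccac
Cxcl10: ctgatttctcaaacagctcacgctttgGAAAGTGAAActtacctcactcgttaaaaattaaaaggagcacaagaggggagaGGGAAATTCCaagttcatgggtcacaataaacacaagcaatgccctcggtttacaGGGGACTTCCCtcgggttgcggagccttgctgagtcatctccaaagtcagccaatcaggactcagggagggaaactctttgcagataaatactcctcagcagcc
The Isg15 window holds 3 overlapping ISRE matches that begin between -78 and -66 relative to the start. In Igtp a GAS match begins at -45 and an ISRE match at -34, and in Cxcl1 overlapping NF-kappaB matches begin at -71 and -70. Cxcl10 holds both kinds, an ISRE match at -213 and 3 NF-kappaB matches between -159 and -103.

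Counted over windows of 300 bases (250 before the start and 50 after), an ISRE match was present in 20 of the 27 tested GTPase and antiviral genes that have a RefSeq window (74.1%). Over all tested genes with a window the share was 3.03% of 8923, and over all RefSeq windows it was 3.49% of 27025. Of the genes called higher by over 2-fold, 10.5% of 569 had an ISRE match, against 1.67% of 478 among those called lower. The NF-kappaB consensus was matched in 13 of 19 NF-kappaB feedback genes and neutrophil chemokines (68.4%), against 10.1% of all tested genes. A GAS match was found in 11 of the 27 interferon-stimulated genes (40.7%) and in 6.85% of tested genes. The GTPase and antiviral set and the NF-kappaB and chemokine set are lists of genes already tied to these pathways. Their shares therefore describe the lists and not the response to LPS. A match describes letters in a window and says nothing on binding.

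Antigen presentation rose as well. Each of the 19 genes in the MHC class I list was tested and higher after LPS, with a median log2 change of 2.64. B2m, the invariant light chain of class I molecules, stood at 180.3 and 195 CPM in the controls and at 1018 and 803 CPM after LPS (log2 2.28 ± 0.12, adjusted p = 1.25e-09). The peptide transporter Tap1 went from 12.8 and 16.2 CPM to 284 and 222 CPM (log2 4.10 ± 0.15), and the immunoproteasome subunit Psmb8 from 68 and 63.6 CPM to 770.2 and 607 CPM (log2 3.39 ± 0.13). Nlrc5, the transactivator of class I genes, had 3 UMIs in the controls together and 189 after LPS, a ratio of 53.6 with a counting interval of 18.1 to 262. The class I heavy chains H2-K1 and H2-D1 rose by 1.51 ± 0.10 and 1.47 ± 0.10 on the log2 scale; the Q and T genes of this locus are near-identical, so their counts are uncertain.

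Class II genes rose less, in 8 of 10 tested of 11 listed, with a median log2 change of 1.09. Cd74, the invariant chain that AE2 cells make constitutively, was at 3231 and 3227 CPM in the controls and at 6642 and 5419 CPM after LPS (log2 0.90 ± 0.11, adjusted p = 1.02e-05). Ciita, the class II transactivator, went from 17.4 and 18.9 CPM to 65.5 and 50.3 CPM (log2 1.66 ± 0.19). H2-Ab1 rose by 1.13 ± 0.14. Among ligands of T cell receptors for costimulation and inhibition, 6 of 12 were tested and 4 rose. Cd274, which encodes PD-L1, was at 0.72 and 0.13 CPM in the controls and at 14.4 and 10.2 CPM after LPS (log2 5.08 ± 0.52), and Lgals9 (galectin-9) rose by 1.86 ± 0.11.

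Of the feedback inhibitors of cytokine signalling, 3 of 11 rose, against 19.5% of all tested genes. Socs1, which blocks interferon receptor kinases, went from 1.93 and 1.33 CPM to 53.9 and 32.2 CPM (log2 4.77 ± 0.52, adjusted p = 5.59e-04), and the phosphatase Ptpn2 from 33.8 and 30.3 CPM to 120 and 102 CPM (log2 1.80 ± 0.15). Socs3, the inhibitor of interleukin-6-type signals, did not pass the test: it was at 92.8 and 75.1 CPM in the controls and at 67.7 and 74.8 CPM after LPS, with a log2 difference of -0.23 ± 0.12. Socs2 rose by 0.38 ± 0.09, a call lost without control 2 (log2 0.33) or LPS 1 (log2 0.34).

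Acute phase proteins, best known from liver, rose in all 12 tested genes of 18 in the list. Orm1, the plasma carrier orosomucoid, was at 9.88 and 11.6 CPM in the controls and at 2221 and 2774 CPM after LPS (log2 7.84 ± 0.30, adjusted p = 1.54e-06). Saa3, a serum amyloid A made outside the liver, went from 91.1 and 69.6 CPM to 8758 and 7847 CPM (log2 6.70 ± 0.19), and the haemoglobin scavenger Hp from 1165 and 1365 CPM to 11770 and 11220 CPM (log2 3.18 ± 0.11). In contrast to the GTPases, Orm1 was higher in LPS 2 than in LPS 1. The median log2 change of the list was 3.37. Orm2 and Orm3, near copies of Orm1, rose by 7.90 ± 0.21 and 6.76 ± 0.28, and their reads may be shared.

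Proteins that starve or attack bacteria behaved less uniformly, with 7 of 16 tested genes higher and 2 lower (9 and 1 per cell). Of all tested genes, 19.5% were higher and 15.4% lower per UMI. Lcn2, the siderophore trap lipocalin-2, stood at 2325 and 2412 CPM in the controls and at 83580 and 77510 CPM after LPS (log2 5.09 ± 0.18, adjusted p = 7.89e-09). The ferritin heavy chain Fth1 went from 3808 and 3782 CPM to 45210 and 46070 CPM (log2 3.59 ± 0.14), while the light chain Ftl1 stayed at 1545 and 1469 against 1508 and 1612 CPM (log2 0.05 ± 0.09). Slpi, an inhibitor of neutrophil elastase, rose by 3.79 ± 0.14. Both lysozymes, which are close copies, were called lower: Lyz1 at log2 -1.50 ± 0.33, and Lyz2 at log2 -0.48 ± 0.14. The Lyz1 call was lost with the replicate block for lane (log2 -1.49, adjusted p = 0.063) and without control 1 (log2 -1.59) or control 2 (log2 -1.40), in a fit on the 4 young libraries only (log2 -1.51) and with no filter on low counts (log2 -1.49). The Lyz2 call was lost at per-cell scaling (log2 -0.12), with at least 2% Sftpc (log2 -0.39) and without any 1 of the young libraries (log2 -0.51 to -0.45).

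Complement genes rose in 7 of 9 tested of 16 listed, beside 19.5% of all tested genes. Serping1, in this list, had 2 UMIs in the controls together and 78 after LPS. A gene that low could not pass the filter on low counts through the young controls, so the only change open to it was a rise. C3, the central component, was at 152 and 178 CPM in the controls and at 1471 and 1242 CPM after LPS (log2 3.04 ± 0.12, adjusted p = 6.97e-11). C1ra and Cfb rose from at most 1.33 CPM to 32.2 and 34.3 CPM, and to 16.6 and 13.5 CPM. Among enzymes that make immune metabolites, Il4i1, a secreted phenylalanine oxidase, went from 24.1 and 13 CPM to 876 and 765 CPM (log2 5.53 ± 0.38), and the arginase Arg2 from 30.4 and 39.3 CPM to 239 and 239.9 CPM (log2 2.76 ± 0.14). No UMI of Ido1 was counted. Nos2 had 2 UMIs in the controls and 12 after LPS, and was not called.

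In the list of pyroptosis, necroptosis and apoptosis, 12 of 17 tested genes rose and none fell, with a median log2 change of 0.68. Mlkl, the pore protein of necroptosis, was at 0.96 and 0.93 CPM in the controls and at 12.4 and 9.15 CPM after LPS (log2 3.48 ± 0.33, adjusted p = 1.16e-06). Fas, the death receptor, went from 5.55 and 4.25 CPM to 27.8 and 27.6 CPM (log2 2.54 ± 0.24), and the pyroptosis pore gene Gsdmd rose by 1.52 ± 0.22. Initiator caspase gene Casp8 was not called (log2 -0.06 ± 0.15).

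**Figure D3:**
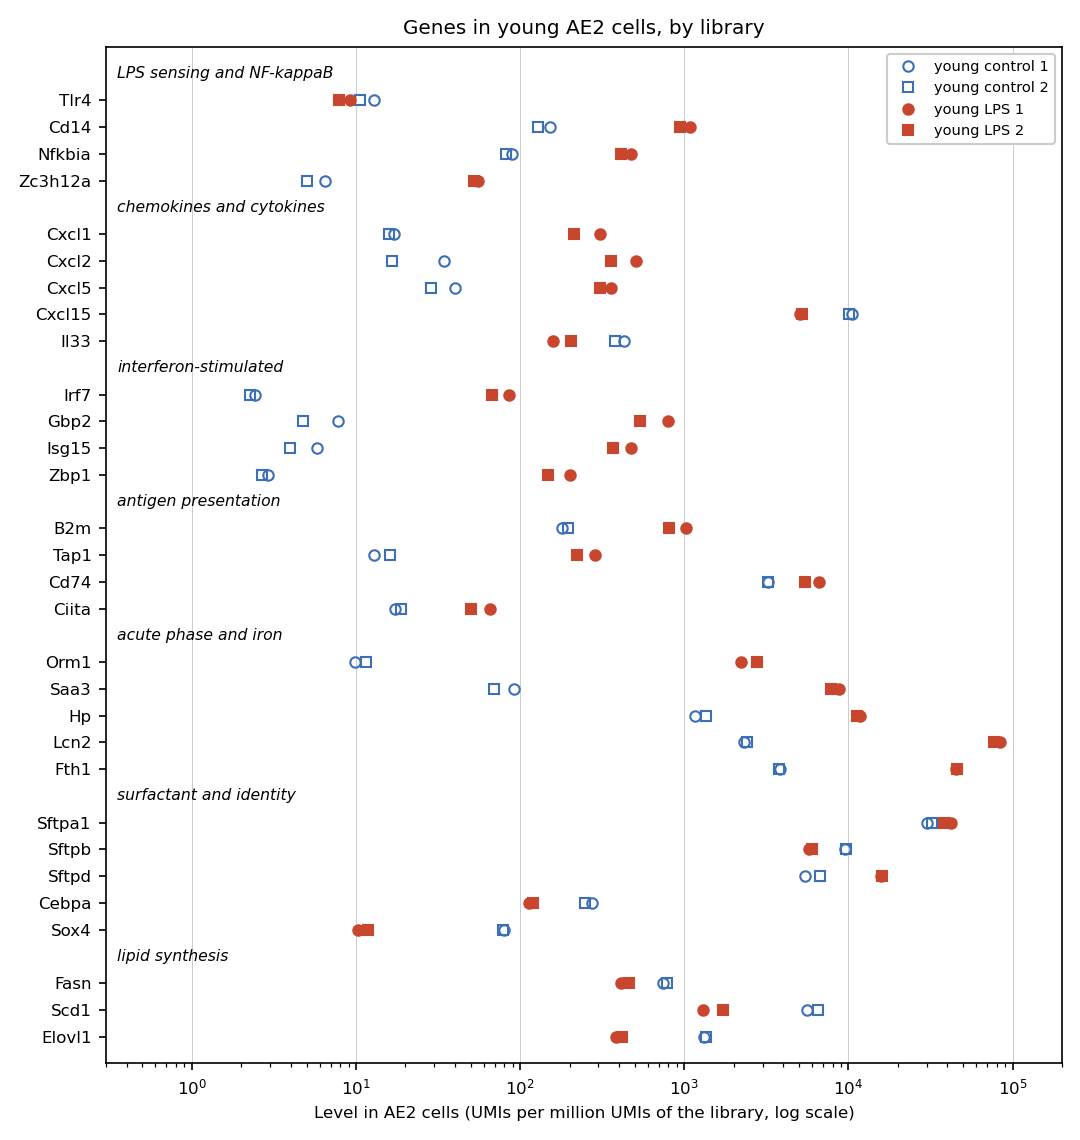
Levels of 30 genes in the summed AE2 cells of each young library, in CPM (TMM-scaled, log axis); open blue symbols are controls, filled red symbols are LPS, circles lane 1 and squares lane 2. Orm1, Saa3 and Lcn2 show wide gaps between the groups, and Tlr4 and Sftpa1 narrow ones.

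Surfactant genes did not move as a block. Of the 10 tested genes in the surfactant and lamellar body list that took no part in the selection, 4 rose and 2 fell. Over all tested genes, 19.5% rose and 15.4% fell. Sftpd, the collectin that binds microbial sugars, went from 5472 and 6672 CPM to 15890 and 16050 CPM (log2 1.40 ± 0.11, adjusted p = 9.21e-08). Ctsh, a protease that processes surfactant proteins B and C, went from 911 and 1067 CPM to 2876 and 2651 CPM (log2 1.48 ± 0.10). Sftpb, needed for the surface film, was at 9578 and 9597 CPM in the controls and at 5772 and 6032 CPM after LPS, and was called lower (log2 -0.70 ± 0.22, adjusted p = 0.0483). This call was lost at per-cell scaling (log2 -0.33), with library size only (-0.71), with no filter on low counts (-0.69), with at least 2% Sftpc (-0.57), without the 5% of cells with the most UMIs (-0.69) and without any 1 of the young libraries (log2 -0.73 to -0.66). The call of Sftpa1 (log2 0.36 ± 0.13, adjusted p = 0.0446) was likewise lost without any 1 of them (log2 0.29 to 0.44), and also with DESeq2, with library size only, at the 10 CPM minimum, without the Sftpc minimum and with at most 10% mitochondrial UMIs (log2 0.30 to 0.36).

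For genes used in the selection, levels are given with no test. Sftpc was at 257300 and 232600 CPM in the controls and at 49260 and 62830 CPM after LPS. The lipid transporter Abca3 stood at 822 and 826 CPM and then at 450 and 498 CPM, and Lpcat1, which makes dipalmitoyl phosphatidylcholine, at 1126 and 1059 CPM and then at 522 and 545 CPM. The ETS factor Etv5 was at 344 and 389 CPM in the controls and at 115 and 122 CPM after LPS. Lamp3 and Napsa differed less, with 1328 and 1467 against 1222 and 1183 CPM for Lamp3 and 2821 and 2799 against 2775 and 2988 CPM for Napsa.

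Among 15 other transcription factors of alveolar epithelium, 7 fell and 3 rose per UMI, while at per-cell scaling 1 fell and 4 rose. Of all tested genes, 15.4% fell and 19.5% rose per UMI. Cebpa, which drives AE2 maturation, was at 274 and 248 CPM in the controls and at 114 and 119.6 CPM after LPS (log2 -1.16 ± 0.20, adjusted p = 0.0027). Its relatives Cebpd and Cebpb, both induced in acute inflammation, rose by 1.36 ± 0.14 and 0.76 ± 0.13. Nkx2-1, the master regulator of lung epithelium, was at 315 and 322 CPM and then at 219 and 241 CPM (log2 -0.47 ± 0.11), a call lost per cell (log2 -0.10) and without LPS 1 (log2 -0.40).

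Lipid synthesis genes fell in 10 of 20 tested and rose in 3, against 7 and 5 at per-cell scaling. Of all tested genes, 15.4% fell and 19.5% rose per UMI. Scd1, the desaturase of fatty acids, was at 5563 and 6569 CPM in the controls and at 1303 and 1720 CPM after LPS (log2 -2.0 ± 0.36, adjusted p = 0.0136), a call lost without LPS 1 (log2 -1.81). Elovl1, a fatty acid elongase, went from 1318 and 1351 CPM to 382 and 418 CPM (log2 -1.74 ± 0.24), and Fasn, the fatty acid synthase, from 746 and 787 CPM to 412 and 459.5 CPM (log2 -0.81 ± 0.17). Srebf1, the transcription factor of this programme, fell by 0.97 on the log2 scale (SE 0.14). Cholesterol synthesis genes showed no common direction per UMI, with 6 higher and 4 lower of 18 tested, against 19.5% and 15.4% of all tested genes. At per-cell scaling 10 of the 18 were higher and 2 lower. Apoe, a lipid carrier in that list, fell by 1.28 (SE 0.11).

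Developmental signalling genes fell in 10 of 20 tested and none rose, with a median log2 change of -0.52; per cell, 7 fell and 3 rose. Sox4, a transcription factor of epithelial differentiation, was at 79.3 and 78.5 CPM in the controls and at 10.4 and 11.8 CPM after LPS (log2 -2.83 ± 0.13, adjusted p = 3.38e-10). Bmp4 went from 38.3 and 30.5 CPM to 11.2 and 8.63 CPM (log2 -1.79 ± 0.17), and the fibroblast growth factor receptor Fgfr2 from 210 and 204 CPM to 129 and 127.5 CPM (log2 -0.69 ± 0.11; -0.32 per cell, not called). Wnt target Axin2 was not called (log2 -0.57 ± 0.28). Cell cycle genes were low throughout, and 8 of 14 tested fell, none rising (6 and 2 per cell). Top2a, which untangles replicated DNA, stood at 5.79 and 2.52 CPM in the controls and at 0.17 and 0.13 CPM after LPS, which is 1 UMI in each LPS library.

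Type I cell markers gave no common direction per UMI, with 4 higher and 3 lower of 15 tested, beside 19.5% and 15.4% of all tested genes. At per-cell scaling 6 of the 15 were higher and 1 lower. Ager, the receptor RAGE, was at 1166 and 1085 CPM in the controls and at 1093 and 1084 CPM after LPS (log2 -0.05 ± 0.10). Of the genes linked to transitional alveolar epithelium, 7 of 16 tested rose and 1 fell (10 and 1 per cell). Clu, a secreted chaperone, was at 124 and 173 CPM and then at 691 and 562 CPM (log2 2.07 ± 0.15, adjusted p = 5.71e-07), and the cell cycle inhibitor Cdkn1a at 25.8 and 36 CPM and then at 119 and 115 CPM (log2 1.89 ± 0.18). Krt8, the keratin that names this state, was at 136 and 165 CPM in the controls and at 269.6 and 245 CPM after LPS (log2 0.77 ± 0.20, adjusted p = 0.0205). The Krt8 call was lost without control 1 (log2 0.65), LPS 1 (0.70) or LPS 2 (0.84), with at least 2% Sftpc (0.55), and without the 5% of cells with the most UMIs (0.68). Other keratins of the list, Krt18 and Krt19, were not called.

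Transport and barrier genes moved both ways when scaled per UMI. Of 13 tested genes of fluid and ion transport, 3 rose and 5 fell per UMI, and 6 rose and 2 fell per cell. Scnn1a, the alpha chain of the sodium channel that clears alveolar fluid, was at 75.7 and 71.7 CPM in the controls and at 167 and 206 CPM after LPS (log2 1.34 ± 0.13, adjusted p = 1.85e-06), while its partners Scnn1b and Scnn1g were not called. The chloride channel gene Slc26a9 fell by 0.92 (SE 0.12). Cldn18, the main alveolar claudin, was at 665 and 654 CPM and then at 411 and 393 CPM (log2 -0.71 ± 0.11; -0.35 per cell, not called). Tjp3, a scaffold of tight junctions, went from 25.1 and 25.9 CPM to 63.4 and 65.4 CPM (log2 1.33 ± 0.11). In all, 5 junction genes rose and 5 fell of 17 tested, where 19.5% and 15.4% of all tested genes did. At per-cell scaling 6 junction genes rose and none fell, so the falls of this list depended on the scaling.

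Genes that handle oxidants rose in 8 of 19 tested and fell in 3, beside 19.5% and 15.4% of all tested genes. At per-cell scaling 11 of them rose and 1 fell, where 3784 of 11347 tested genes rose and 654 fell. Sod2, the mitochondrial superoxide dismutase and an NF-kappaB target, went from 196 and 189.8 CPM to 1584 and 1470 CPM (log2 2.98 ± 0.13, adjusted p = 3.92e-10). Prdx6, a peroxidase that also hydrolyses surfactant phospholipid, was at 418 and 399.8 CPM in the controls and at 1640 and 1601 CPM after LPS (log2 1.99 ± 0.16). Gclc, a glutathione synthesis gene and NRF2 target, fell by 0.44 (SE 0.11), a call lost per cell and without control 1 (log2 -0.07 and -0.41). In the list of endoplasmic reticulum stress and folding, 13 of 18 tested rose and none fell, and the chaperone Hspa5 went from 295 and 303 CPM to 663 and 583 CPM (log2 1.06 ± 0.10).

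Large changes outside the lists described above included poorly studied genes. Gm4951, an interferon-inducible GTPase-like gene, had 1 UMI in the controls together and 483 after LPS, a ratio of 411 with a counting interval of 73.5 to 16279. Aqp3, a water and glycerol channel, had 2 and then 299 UMIs, a ratio of 127 with an interval of 34.9 to 1056. Among falls, Nrep was at 31.6 and 33.6 CPM in the controls and at 2.04 and 2.22 CPM after LPS (log2 -3.92 ± 0.36, adjusted p = 2.63e-05), Vpreb3 at 47.7 and 46.3 CPM and then at 4.58 and 3.66 CPM (log2 -3.52 ± 0.45), and Adamts1, an extracellular protease, at 62 and 56.2 CPM and then at 8.65 and 8.89 CPM (log2 -2.74 ± 0.17). Tppp3, also a marker of ciliated cells, fell by 2.66 (SE 0.20). The summed ciliated markers outside the selection stood at 68.9 and 85.6 CPM in the controls and at 30 and 32.5 CPM after LPS, and their part in the fall of Tppp3 was not tested.

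Transcripts of other cell types and RNA free in the suspension were looked at beside these changes. Alveolar macrophage markers summed to 10.7 and 30.7 CPM in the controls and to 65.2 and 66.9 CPM after LPS. Plet1, which is also an epithelial gene, gave 6.67 and 13.4 CPM of the control sums and 63.7 and 59.9 CPM of the LPS sums. Platelet markers went from 15.5 and 16.5 to 123 and 135 CPM through Pf4 alone, with Ppbp and Gp9 at 0. Endothelial markers went from 8.82 and 6.3 to 25.2 and 17.3 CPM, mostly through Pecam1, and B cell markers from 38.1 and 42.3 to 51.7 and 57.4 CPM, mostly through Cd79b. Club cell markers were at 85.5 and 54.4 CPM in the controls and at 41.3 and 19 CPM after LPS. Neutrophil markers were at 4.29 and 11.1 CPM in the controls and at 4.86 and 3.62 CPM after LPS, with Mmp8 and Camp at 0. Of 3 neutrophil markers tested, 1 was called lower. Monocyte and macrophage markers went from 29.5 and 21 CPM to 13.4 and 16.3 CPM, mostly through Ly6c2. For free RNA, leukocytes of the same libraries (a Ptprc UMI and under 1% Sftpc) were used: Lcn2 stood at 498 and 437 CPM in them in the controls and at 4383 and 4850 CPM after LPS, before scaling. In AE2 cells, Lcn2 was at 2298 and 2434 CPM and at 82622 and 76679 CPM on that scale. Orm1 in these leukocytes was at 13.9 and 9.63 and then at 210.2 and 102 CPM. The share of free RNA in the AE2 values was not tested.

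How many AE2 cells took part was read from each cell thinned to 2000 UMIs, so that depth was equal; 13, 10, 1 and 2 shallower cells were left out of control 1, control 2, LPS 1 and LPS 2. Over 42 GTPase and antiviral genes, the median cell held 0 UMIs in both controls, 9 in LPS 1 and 5 in LPS 2. Above the 99th percentile of the control cells of the same lane lay 578 of 781 LPS 1 cells (74%, exact 95% interval 70.8% to 77.1%) and 517 of 927 LPS 2 cells (55.8%, 52.5% to 59%). Over 36 acute phase and antimicrobial genes the medians were 103 and 111 UMIs in the controls and 378 and 365 after LPS, and 91.4% (89.2% to 93.3%) and 83% (80.4% to 85.3%) of the LPS cells lay above that percentile. A few genes carry this sum: Lyz2 held 69.3% and 69.4% of its UMIs in the AE2 cells of the controls, and Lcn2 held 43.4% and 41.7% and Fth1 23.4% and 24.8% after LPS. These intervals cover counting error only, and 2 libraries against 2 are too few for an exact permutation test to reach 0.05, so no test was made.

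**Figure D4:**
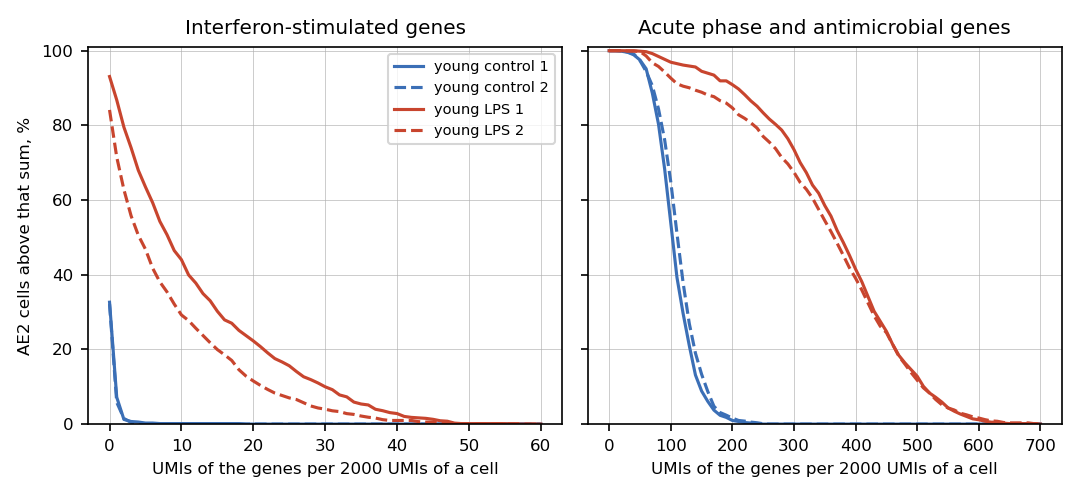
Share of AE2 cells (%, y axis) whose summed UMIs of a gene set exceed the value on the x axis, after thinning each cell to 2000 UMIs; left, 42 interferon-stimulated genes, right, 36 acute phase and antimicrobial genes; blue lines are controls, red lines LPS, solid lane 1, dashed lane 2. Control cells hold almost no interferon-stimulated transcripts, LPS cells spread from 0 UMIs upward, and on the right most LPS cells lie beyond the controls.

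Single genes differed in how many cells held them. Orm1 had a UMI in 1.52% and 2.03% of thinned control cells and in 74.8% and 73.8% of LPS cells (4.48%, 6.83%, 87% and 84.4% unthinned), against 5.26% and 2.13% of leukocytes and 85.1% and 81.5% of ciliated cells after LPS. The thinned cells after LPS were 57 and 47 leukocytes and 87 and 54 ciliated cells. Median UMIs were 5813 and 6513 in these leukocytes before thinning. Iigp1 was found in 0.277% and 0.53% of control cells and in 47.5% and 33.7% of LPS cells (1.09%, 2.71%, 57.7% and 44.6% unthinned), and after LPS in 12.3% and 14.9% of leukocytes and 65.5% and 38.9% of ciliated cells, so neither gene was restricted to AE2 cells. Cxcl1 was in 3.04% and 1.94% of control cells and in 24.3% and 18.1% of LPS cells (5.57%, 4.9%, 37.7% and 32.3% unthinned), and in 5.26% and 4.26% of leukocytes after LPS. Of the neutrophil chemokines Cxcl1, Cxcl2, Cxcl3 and Cxcl5 together, 52.4% and 59.7% of LPS cells held no UMI. Cxcl10 was in only 4.99% and 2.27% of LPS AE2 cells (7.03% and 3.98% unthinned) and in 17.5% and 8.51% of leukocytes after LPS. Across cells of 1 library, sums over the interferon genes and the neutrophil chemokines had Spearman correlations of 0.32 in LPS 1 (781 cells) and 0.37 in LPS 2 (927 cells), as a description, since cells share a library and its free RNA.

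The young response was set against that of old AE2 cells in the same fit. The LPS change differed between ages for 47 of 11347 genes (0.414%), 30 with the higher change in old cells and 17 with the higher change in young cells. This count rests on few libraries: it was 8 without control 1, 1 without control 2, 25 without LPS 1 and 28 without LPS 2. With a replicate block for the lane, which pairs the libraries, it was 66. In the MHC class I list, 7 of 19 genes differed, each with the larger rise in young cells. Tap1 rose by 4.10 in young and by 2.73 in old cells, B2m by 2.28 and 1.30, and Nlrc5 by 5.68 and 1.96, all on the log2 scale, with adjusted p of 0.00781, 0.0121 and 0.00781 for the difference. The groups differed at different ends: B2m had means of 188 CPM in young and 368 CPM in old controls and of 910.5 and 905.5 CPM after LPS, whereas Tap1 had 14.5 and 16.4 CPM in the controls and 253 and 109 CPM after LPS. Nlrc5 had 0.25 and 1.83 CPM in the controls and 14 and 7.07 CPM after LPS. These levels were not tested between ages. Il33 fell by 1.15 in young cells and was at -0.03 in old cells (adjusted p = 0.00781). Socs3 was at -0.23 in young and 1.15 in old cells (adjusted p = 0.00414), and Cd14 rose by 2.85 and 4.49 (adjusted p = 0.0191). Over 16 settings in which the difference was refitted, it was called in 16 for Socs3, 14 for Tap1 and for Il33, 13 for B2m and 12 for Cd14.

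**Figure D5:**
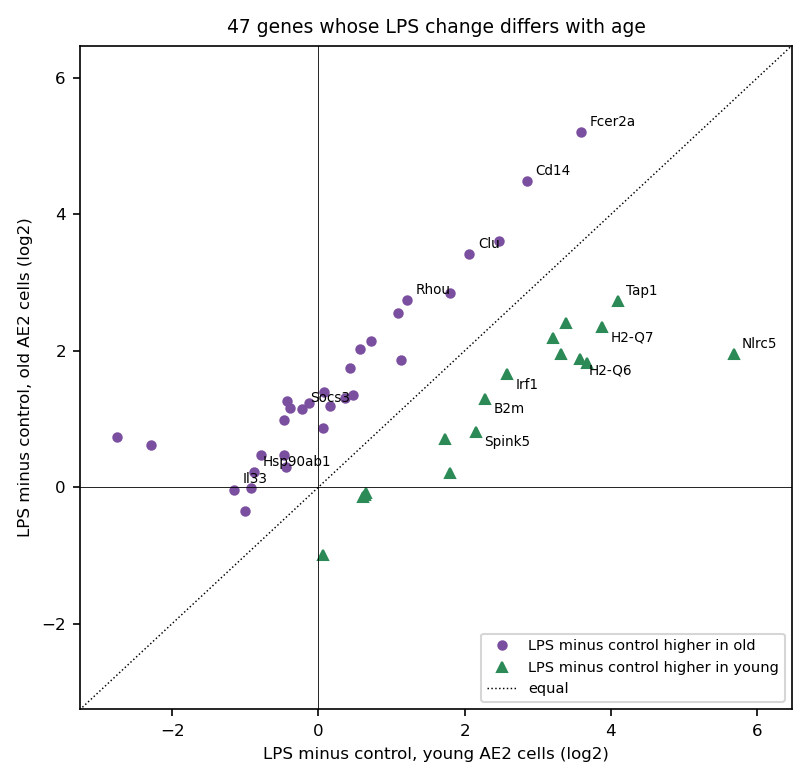
Log2 LPS change in young (x axis) against old (y axis) AE2 cells for the 47 genes whose change differed; purple circles have the higher change in old cells and green triangles in young cells, and the dotted line marks equal change. The genes were chosen by this difference, so the distance from the line describes them; Nlrc5 and Tap1 lie on the young side, Cd14, Clu and Fcer2a on the old side.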

How the data were processed

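Droplet 3' RNA sequencing of EpCAM-sorted lung cells was analysed from the tables of UMI counts per gene and barcode, 1 per group and lane, as deposited by the authors. The submitters' processing notes give no roles but list build mm10, R 3.6.3, Seurat (3.1 and 3.1.5), bcl2fastq, the aligner STAR and Cell Ranger 3.1.0. Of 31053 gene IDs, 30934 matched a symbol. The 4 hashtag entries of each table were kept apart from the genes. Cxcl11, Mx2, Chi3l1, C5 and Ddit3 are not analysed here. No doublet caller was run: the selection removed cells with leukocyte, cilium or abundant club cell transcripts, and leaving out the 5% of AE2 cells with the most UMIs was an alternative.

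UMIs of the AE2 cells were summed per library (4197306 to 7732524 in young libraries) and tested with edgeR 4.0.16 (TMM scaling, its filter on low counts, quasi-likelihood test, 8 libraries in 4 groups, R 4.3.3), with Benjamini-Hochberg adjustment over 11347 genes. The age comparison is the interaction term. CPM values are TMM-scaled unless said otherwise. Sums of cell type markers, and the Plet1 values given with them, are before that scaling. Standard errors are those of the log2 change, with n = 2 libraries per group. On simulated counts for young LPS against young control over 11347 genes, 85% of changes of 1 and 98% of changes of 2 (log2) were recovered, with 11 false among 194 calls. The changed genes, 100 of each size, were drawn only from genes above a minimum level in the controls. Recovery of genes near the detection floor was therefore not measured. Lanes are replicate experiments per the labels and pair the libraries. The deviations of young control and young LPS from their group means correlated with r = 0.019 across genes. For young LPS and old LPS r was 0.146, the highest among the pairs of groups. Lane as a block was an alternative.

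The 31 gene lists (532 genes) and the members were chosen with earlier results of these data known. Named genes were the first 4 tested genes of each list, up to 2 further called members with the largest change, the 10 largest changes in each direction with at least 20 CPM in a group mean, and the 10 smallest p of the interaction; Myd88, Tirap, Ticam1, Tnf, Jak2, H2-K1, H2-D1, Ftl1, Lyz1, Krt18, Krt19, Plet1 and Pf4 were named after their values were seen. Promoter windows are from RefSeq (GRCm38.p6). In all, 17 alternatives were run, among them DESeq2 1.42.0, other scalings and filters, other cell selections and each young library left out.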

Additional observations from a re-analysis of the deposited data

Results flagged for a closer look

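The genes here were picked out because their LPS change differed between old and young AE2 cells by the interaction term (edgeR, adjusted p under 0.05); values are old minus young differences on the log2 scale, and adjusted p ranged from 0.00414 to 0.0397. The larger rise was in young cells for the class I genes Tap1 (-1.36), B2m (-0.98), Psmb8 (-0.98), Nlrc5 (-3.72), H2-Q7 (-1.53) and H2-Q6 (-1.70), for the interferon-response genes Irf1 (-0.92) and Irgm1 (-1.36), for the pore protein gene Mpeg1 (-1.84), for the tryptophanyl-tRNA synthetase gene Wars (-1.03) and for the protease inhibitor gene Spink5 (-1.34). Nlrc5 had 3 UMIs in the young controls together, so its size depends on few counts.

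The change was higher in old cells for Cd14 (1.63), Tnfsf9 (1.42), Ptpn2 (1.05), Clu (1.36), Rhou (1.53) and Fcer2a (1.61), which rose at both ages. It was also higher for Socs3 (1.38), Bhlhe40 (1.54), Il33 (1.12), Slc26a9 (0.91), Gclc (0.74), Hsp90ab1 (1.10) and Sp5 (1.27), for which the young log2 change lay below 0. Gclc was called in 7 of 16 settings, Wars in 8, Ptpn2 in 9 and Irgm1 in 10.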

How the results depend on the processing

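Counts of genes higher and lower after LPS stayed within 1.5 times of the values reported under most settings. With the replicate block for lane they were 2238 and 1773, and among the 198 named genes only the call of Csf3 was lost; of those named outside that rule, Lyz1 lost its call. A fit on the 4 young libraries only gave 2488 and 2210 and lost Tnfaip2, Cxcl10 and Ccl20 of the named genes, and Lyz1. Per-cell scaling gave 3784 higher and 654 lower, 1381 and 364 over 2-fold, and 86 genes whose change differed with age, and it turned Cst3 from -0.28 to 0.09 (log2). DESeq2 called 1008 lower. A minimum of 10 CPM in 2 libraries, which leaves fewer genes tested, gave 468 higher and 349 lower over 2-fold. Leaving out 1 young library at a time gave 1388 to 1612 higher, 920 to 1086 lower and 1 to 28 genes that differed with age. That last count was 256 with no filter on low counts, 76 without the Sftpc minimum, 24 with at least 2% Sftpc and 30 without the 5% of cells with the most UMIs. The cause of these shifts was not tested. With 2 libraries per group, few UMIs in many controls and an AE2 selection that uses a gene lower after LPS, small changes and low genes are the least certain.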
